A study of Mus musculus with 9 samples.

Results

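The genes of proximal T cell receptor signalling encode the first proteins that act when the receptor binds antigen. The 9 genes described here are Cd3e, Cd3d, Cd3g and Cd247, which encode the signalling chains of the receptor, the kinase genes Lck, Fyn and Zap70, and the adaptor genes Lat and Lcp2. Their accessibility was read from an ATAC-seq table of 115727 peaks, in which a transposase cuts open chromatin and reads pile up where it could enter. A peak was taken when the table lists it under 1 of the 9 genes, or when it has no gene in the table and lies within 30 kb of the gene's transcript span. This gave 188 peaks, of which 134 were listed under a gene and 54 were intergenic. At the edge of the window, the farthest peaks inside lay 29.951 kb from Lat (5.11 CPM) and 29.869 kb from Cd3e (4.13 CPM), and the nearest outside lay 30.996 kb from Lcp2 (0.741 CPM). CPM are the counts per 1000000 reads that a library has in the listed peaks.

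Naive CD4+ T cells came from C57BL/6 mice, were isolated ex vivo with a commercial kit and were not treated, and each reaction took 50000 cells. There were 3 genotypes with 3 libraries each: WT, Stat6_KO, in which the gene for the transcription factor of interleukin-4 signalling is knocked out, and Il21e_KO. Il21e KO and IL21KO are both used for the last allele in the labels, and the DNA it lacks is not given. Also not given are the age of the mice, whether a library is 1 animal or a pool, and whether the 3 libraries of a genotype are separate animals. The p-values below therefore measure only the spread between these libraries, which may be technical.

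In a resting T cell the receptor itself has no enzyme activity. The CD3 chains and the zeta chain, which Cd247 encodes, carry tyrosine motifs in their tails that LCK, and also FYN, phosphorylate once the receptor is engaged. ZAP-70 binds the phosphorylated motifs and in turn phosphorylates the membrane adaptor LAT and the cytosolic adaptor SLP-76, the product of Lcp2, on which calcium and Ras signalling are assembled. In mice Lck has a pair of promoters, of which the proximal one is used mainly in immature thymocytes and the distal one also in mature T cells. Cd3g, Cd3d and Cd3e lie side by side on chromosome 9.

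Promoter sequences of the 9 genes were taken from RefSeq on the GRCm38.p6 build, which held 12 starts for them. The 6 printed here are the starts of Lck that are known to differ in use, the 3 neighbouring CD3 genes, which can be compared with each other, and the first start of Zap70. Each runs 5′ to 3′ in the direction of transcription from base -250 to base -1. In GRCm38.p6 they are chr4:129573642-129573891 (minus strand) for the Lck distal start, chr4:129558373-129558622 (minus) for the Lck proximal start, chr9:45009612-45009861 (minus) for Cd3e, chr9:44981536-44981785 (plus) for Cd3d, chr9:44980432-44980681 (minus) for Cd3g and chr1:36761548-36761797 (plus) for Zap70. Capitals mark the letters AGGAAG, a core that ETS factors bind, and TGTGGT, a core that RUNX factors bind, on either strand.
Lck distal start: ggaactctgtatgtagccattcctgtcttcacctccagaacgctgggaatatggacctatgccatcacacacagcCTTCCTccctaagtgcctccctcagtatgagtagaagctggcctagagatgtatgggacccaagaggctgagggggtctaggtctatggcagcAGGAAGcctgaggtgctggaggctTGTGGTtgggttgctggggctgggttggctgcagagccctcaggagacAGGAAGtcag
Lck proximal start: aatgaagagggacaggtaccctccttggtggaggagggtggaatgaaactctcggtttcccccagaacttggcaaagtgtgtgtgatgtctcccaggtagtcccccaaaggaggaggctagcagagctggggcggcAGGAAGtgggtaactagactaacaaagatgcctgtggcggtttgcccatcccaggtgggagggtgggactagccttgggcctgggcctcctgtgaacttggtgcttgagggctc
Cd3e start: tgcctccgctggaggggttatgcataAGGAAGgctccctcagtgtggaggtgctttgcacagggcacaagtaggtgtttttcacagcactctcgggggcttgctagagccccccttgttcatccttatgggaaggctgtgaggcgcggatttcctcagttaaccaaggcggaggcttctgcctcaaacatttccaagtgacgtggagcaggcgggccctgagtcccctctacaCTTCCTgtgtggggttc
Cd3d start: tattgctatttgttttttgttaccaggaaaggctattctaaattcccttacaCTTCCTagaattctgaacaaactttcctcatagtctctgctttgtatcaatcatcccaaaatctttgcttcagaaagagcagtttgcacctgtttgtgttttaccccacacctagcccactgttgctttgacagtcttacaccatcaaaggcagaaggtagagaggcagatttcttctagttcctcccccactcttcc
Cd3g start: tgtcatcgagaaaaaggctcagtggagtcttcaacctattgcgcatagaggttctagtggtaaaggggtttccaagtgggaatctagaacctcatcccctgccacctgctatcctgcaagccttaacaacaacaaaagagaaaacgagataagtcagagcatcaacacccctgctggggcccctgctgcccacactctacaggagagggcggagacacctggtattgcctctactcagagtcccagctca
Zap70 first start: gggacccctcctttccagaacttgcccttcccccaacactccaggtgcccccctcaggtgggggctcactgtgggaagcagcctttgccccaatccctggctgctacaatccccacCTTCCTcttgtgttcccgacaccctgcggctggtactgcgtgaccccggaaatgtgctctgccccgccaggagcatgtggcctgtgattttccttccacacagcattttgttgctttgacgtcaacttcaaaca

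AGGAAG was present on either strand in 9 of the 12 windows, among them the Lck distal start with 3 copies, Cd3e with 2 and the Lck proximal start, Cd3d and the first start of Zap70 with 1 each. The same letters were present in 29.5% of the 32851 RefSeq promoter windows of this length. TGTGGT was in 2 of the 12, the Lck distal start and the second start of Zap70, against 4614 of all 32851 windows. The Cd3g window held neither. CTTTGA, the core of TCF and LEF factors, was in 4 of 12 against 13.8%, and CANNTG, the E-box, in 10 of 12 against 66.2%. GGGCGG, the GC box, was in 3 of 12 against 32.7%, and TATAAA in 0 of 12 against 12.4%. The general STAT core TTCNNNGAA was in 1, Cd3d, against 7.02%, and the STAT6 core, which has 1 more N in its middle, in 0 of 12 against 5.85%. CANNTG can overlap other letters, and the STAT cores share their ends. A match describes these letters only. The windows held between 0 and 21 CpG dinucleotides with a median of 3.5, against 6 over all windows. Fyn had the 21, and Cd3d and Lcp2 had 0.

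Depth ranged from 1049460 to 1802405 reads in peaks per library, so that 1 read was worth between 0.555 and 0.953 CPM, and a count of 0 allows up to 3 reads, or 1.66 to 2.86 CPM. Intervals and floors of this kind cover counting error only. The 188 peaks took between 0.192% and 0.206% of the reads of every library. Il21e_KO 1 stood apart: it was the shallowest library, 42.7% of its reads lay in promoter peaks against 31.6% to 36.4% in the others, and 26 of the 188 peaks were without a read in it, against 2 to 15 elsewhere. It was the highest of the 9 libraries at 9 of the 12 promoter peaks that could be tested and the lowest at 31 of the 85 other peaks. Its part in the results was not tested. Some of the results that it enters are also given without it, and the others only with it. All 12 genes that mark naive CD4+ T cells had a promoter peak, with a median of 25.3 CPM per kb of peak. Cd4 itself reached 16.9 CPM per kb. The promoter peak of Cd8b1 stood at 29.1 CPM per kb, whereas Cd8a had no promoter peak. Myeloid markers had a promoter peak in 6 of 8 genes, with a median of 19.0 CPM per kb and a range from 4.56 for Spi1 to 33.5 for Cebpb, and Lyz2 and Csf1r had none. B cell markers had one in 8 of 8 (median 6.17 CPM per kb), NK markers in 4 of 6 (13.9) and erythroid markers in 1 of 5 (11.3). Summed over their promoter peaks, the libraries ranged from 135.2 to 172.8 CPM for myeloid markers, from 21.9 to 54.8 CPM for B cell markers and from 21.0 to 41.6 CPM for NK markers, beside 601.8 to 743.5 CPM for the naive CD4+ T cell markers, and the part of other cells in the results below was not tested.

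All 9 genes had an open promoter, and for 8 of them, all except Zap70, another peak in the gene or its surroundings was denser than the densest promoter of the gene. For Cd3e, Cd3d and Cd3g the densest such peak was the same intergenic one. The densest of 6 to 67 other peaks per gene is compared here, so more peaks give more chances. The share of all genes with this trait was not counted. Peaks were spread very unevenly. Fyn had 68 of the 188, Cd247 32, Lcp2 31, Lck 16, Zap70 14, Cd3e and Lat 10 each, and Cd3d and Cd3g 7 each, where 5 intergenic peaks lie within the window of 2 or more genes. The peaks listed under Fyn (55), Cd247 (30) and Lcp2 (18) put these genes at percentiles 99.7, 98.7 and 96.3 of the 16126 genes of the table, whose median is 2 listed peaks. Their transcript spans are long, at 195.576 kb for Fyn, 82.473 kb for Cd247 and 45.08 kb for Lcp2, whereas that of Lat is 5.741 kb with 1 listed peak. Of the 54 intergenic peaks, 30 have 1 of the 9 genes as the nearest listed start, and the other 24 are nearer to the start of another gene.

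**Figure D1:**
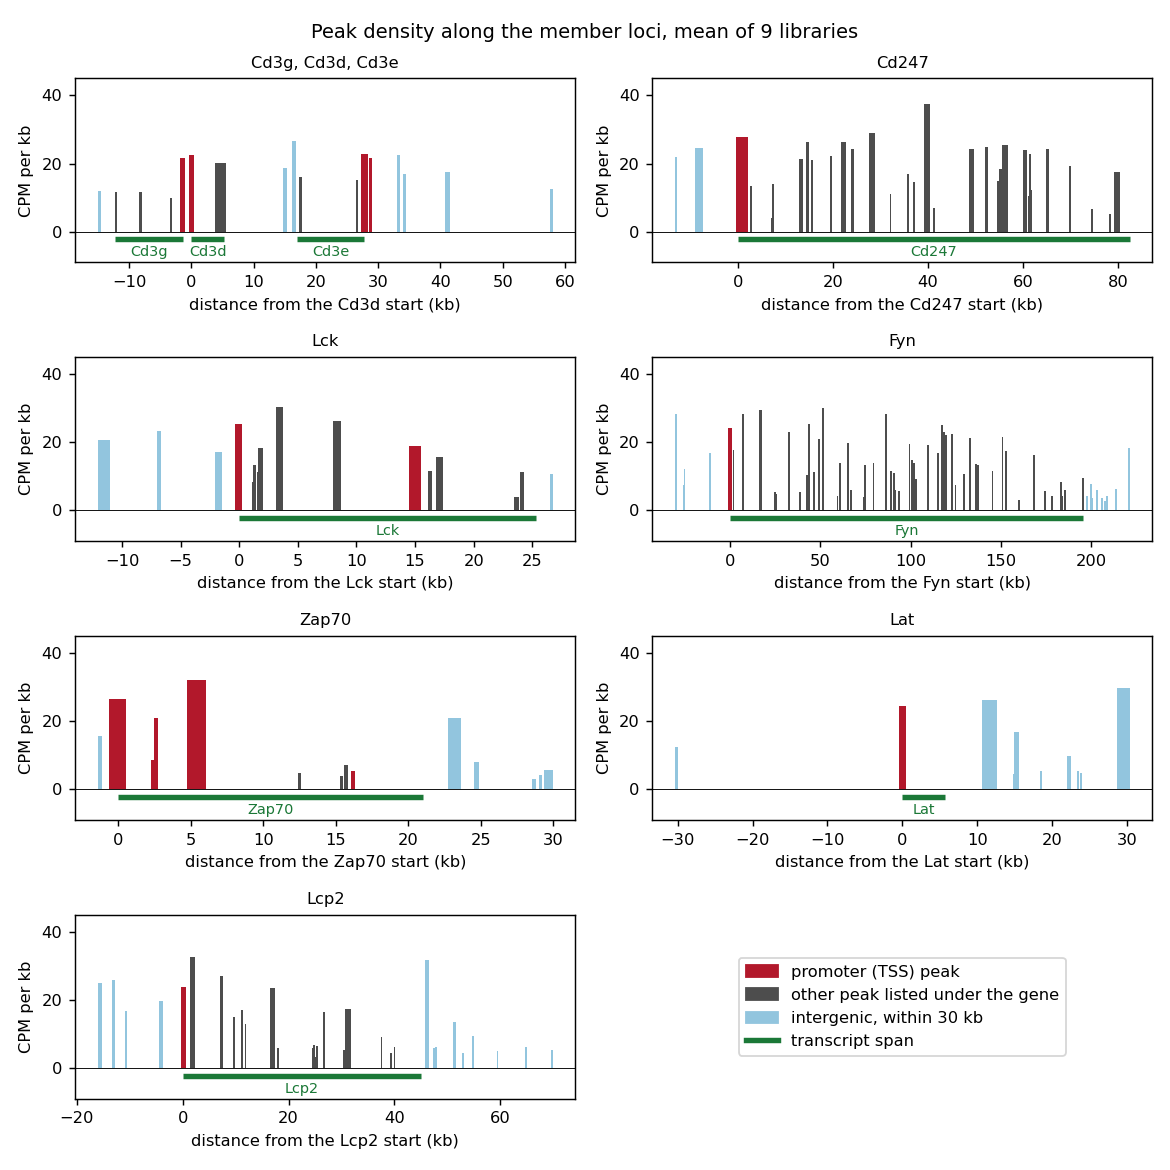
Mean density of each peak over the 9 libraries (CPM per kb of peak, linear axis) against its distance from a start of the gene in kb, for the 9 genes, with bar width equal to peak length. Promoter peaks are red, other peaks listed under the gene dark grey, intergenic peaks light blue and the transcript span green. In Cd247, Fyn, Lcp2, Lck, Lat and the CD3 cluster a grey or light blue bar stands above the promoter, and in Zap70 none does.

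In the table, 39.4% of the 188 peaks carry the label of a 5′ UTR exon, against 9.04% of all peaks, and promoter peaks make up 7.98% against 12.6%. The label belongs to 42 peaks of Fyn, 26 of Cd247 and 6 of Lck, and the peaks that carry it are spread over 135.969 kb of Fyn and 71.899 kb of Cd247. It is therefore not read here as the position of an exon, and peaks are given by their distance from the start.

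Promoter density was compared per kb of peak, since the peaks differ in length. The order of the 12 tested promoter peaks ran from start 3 of Zap70 (32.1 ± 4.24 CPM per kb, mean ± SD over 9 libraries) to the proximal start of Lck (18.8 ± 5.12). Between them came Cd247 (27.9 ± 4.56), start 1 of Zap70 (26.5 ± 5.48), the distal start of Lck (25.4 ± 4.57), Lat (24.5 ± 5.54), Fyn (24.3 ± 3.62), Lcp2 (23.8 ± 2.19), Cd3e (22.7 ± 7.46), Cd3d (22.4 ± 5.73), Cd3g (21.7 ± 5.56) and a peak 703 bases upstream of Cd3e (21.6 ± 3.30). No neighbours in this order differed by more than the larger of their SDs, although start 3 of Zap70 lay above Cd247 in 9 of 9 libraries. The 12 tested peaks and the 12 RefSeq windows are different sets. Start 3 of Zap70 had no window, so its letters were not read. Promoter peaks of the whole table had a median of 21.6 CPM per kb, with 90% of them between 3.77 and 30.3. Percentiles among all promoter peaks were 98.0 for start 3 of Zap70, 87.6 for Cd247, 50.7 for Cd3g and 35.3 for the proximal start of Lck.

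**Figure D2:**
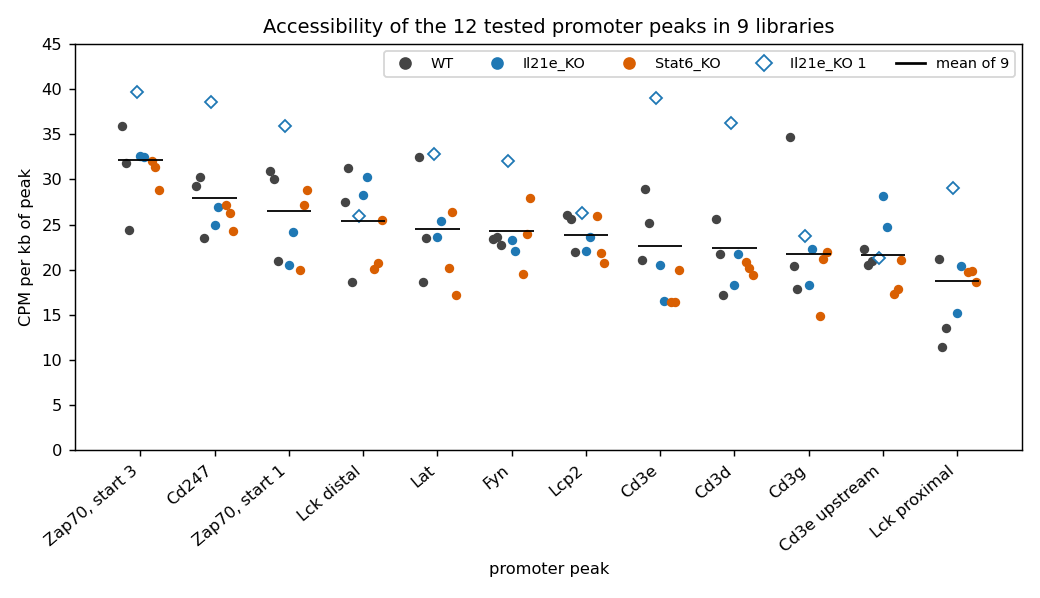
Density of the 12 tested promoter peaks (CPM per kb of peak, linear axis) in each of the 9 libraries, with WT grey, Il21e_KO blue, Stat6_KO orange and a black line at the mean of 9. Il21e_KO 1, the open diamond, is the highest point at 9 of the 12 peaks, and the genotypes overlap at most of them.

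The signalling chains come first. The promoter peak of Cd3e (chr9:44817140-44818214, mm9), which encodes the epsilon chain shared by both CD3 pairs, held 22.6, 31.1 and 27.1 CPM in the WT libraries, 41.9, 22.1 and 17.8 in Il21e_KO and 17.6, 17.7 and 21.4 in Stat6_KO. Stat6_KO and WT did not overlap there, with Stat6_KO the lower, as at 6.89% of all peaks tested. Il21e_KO overlapped both. Cd3d, for the delta chain (chr9:44789547-44790336), held 20.2, 17.1 and 13.5 CPM in WT, 28.6, 14.5 and 17.2 in Il21e_KO and 16.5, 15.9 and 15.3 in Stat6_KO, with all groups overlapping. Cd3g, for the gamma chain (chr9:44788060-44788783), held 25.1, 14.8 and 12.9 CPM in WT, 17.2, 13.2 and 16.1 in Il21e_KO and 10.8, 15.3 and 15.9 in Stat6_KO, again with overlap.

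The starts of Cd3g and Cd3d, which point away from each other, are 1.354 kb apart, and each has a peak of its own. The start of Cd3e lies 27.805 kb beyond that of Cd3d. Between the genes, a peak 11.3 kb from the Cd3e start (chr9:44806089-44806712) was the densest of the cluster at 26.7 ± 5.39 CPM per kb, above the Cd3e promoter in 7 of 9 libraries, above Cd3d in 6 and above Cd3g in 7. The peak at the end of Cd3d (chr9:44793693-44795493) held the most reads of the cluster, at 36.5 CPM, or 20.3 CPM per kb over its 1.8 kb. Summed over all their peaks, the genes held 114 ± 6.14 CPM in WT for Cd3e, 108 ± 2.91 for Cd3d and 65.7 ± 6.36 for Cd3g (SD, n = 3), sums that share 5 of the intergenic peaks.

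Cd247 differed from the CD3 genes in its number of dense peaks. Its promoter peak (chr1:167718550-167720996), the longest of the 188 at 2446 bases, held 71.6, 74.0 and 57.4 CPM in WT, 94.3, 61.1 and 66.0 in Il21e_KO and 66.5, 64.2 and 59.3 in Stat6_KO. All 3 genotypes overlapped there. A peak 39.304 kb into the gene (chr1:167758116-167759370) held 49.6, 45.9 and 49.7 CPM in WT, 53.4, 46.6 and 42.7 in Il21e_KO and 42.1, 44.7 and 47.7 in Stat6_KO. At 37.4 ± 2.87 CPM per kb it was denser than the promoter in 9 of 9 libraries and ranked 30 of the 101119 peaks of the table outside promoters, or percentile 99.97. Another peak 27.599 kb into the gene reached 29.1 CPM per kb. Of the 31 Cd247 peaks outside the promoter, 14 were denser than the median promoter peak of the table. Over all 9 genes this held for 38 of 173 peaks, or 22.0%, against 11.5% of all peaks outside promoters. Fyn had 11 of 67 and Zap70 0 of 9.

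Among the kinases, the starts of Lck lie 15.269 kb apart and both were open. At the distal peak (chr4:129250615-129251238) WT had 28, 25 and 18 reads, Il21e_KO 17, 28 and 34, and Stat6_KO 22, 22 and 26. At the proximal peak (chr4:129235422-129236373) WT had 33, 14 and 20 reads, Il21e_KO 29, 23 and 35, and Stat6_KO 33, 32 and 29. Per kb of peak, the distal start was denser than the proximal one in every library except Il21e_KO 1, with ratios from 0.895 there to 2.73 in WT 2. In Stat6_KO the ratio was 1.02, 1.05 and 1.37, in WT 1.295, 2.73 and 1.37, and in Il21e_KO 0.895, 1.86 and 1.48, with all genotypes overlapping. A peak 3.172 kb beyond the distal start (chr4:129247118-129247714) was the densest of Lck outside promoters, at 30.3 ± 6.93 CPM per kb, and lay above the distal promoter in 7 of 9 libraries.

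Fyn, the second Src family kinase of T cells, had its promoter peak (chr10:39088483-39090892) at 56.3, 56.8 and 54.8 CPM in WT, 77.2, 56.1 and 53.3 in Il21e_KO and 47.2, 57.7 and 67.3 in Stat6_KO. WT varied least and lay within the range of both knockouts. The densest Fyn peak outside the promoter lay 50.673 kb into the gene (chr10:39140278-39141545), at 30.2 ± 3.58 CPM per kb, above the promoter in 8 of 9 libraries. The promoter held 9.53% of the summed CPM of Fyn.

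For Zap70 the promoters held 69.6% of the sum, the highest share of the 9 genes, while the other genes had between 8.85% (Lcp2) and 30.7% (Cd3e). Start 1 (chr1:36817977-36819145) held 36.1, 35.0 and 24.5 CPM in WT, 41.9, 23.9 and 28.3 in Il21e_KO and 23.3, 31.8 and 33.6 in Stat6_KO. Start 3 (chr1:36823372-36824668), 5.136 kb downstream, held 46.5, 41.3 and 31.6 CPM in WT, 51.5, 42.2 and 42.2 in Il21e_KO and 41.5, 40.6 and 37.3 in Stat6_KO. Genotypes overlapped at start 1. At start 3 all Stat6_KO libraries lay below all Il21e_KO libraries, as at 4.59% of all peaks tested, and WT overlapped both. The 3 other promoter peaks of Zap70 had too few reads to test, at 1.61 to 5.28 CPM. Outside promoters its densest peak lay beyond the gene end (chr1:36841387-36842286), at 20.8 ± 3.68 CPM per kb, below start 3 in every library.

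The adaptor genes had their densest peaks close to the promoter or well away from it. Lat (chr7:133512570-133513529) held 31.2, 17.9 and 22.6 CPM at its promoter in WT, 31.4, 22.7 and 24.4 in Il21e_KO and 19.3, 25.3 and 16.5 in Stat6_KO, with overlap. Most of its summed reads came from a pair of long intergenic peaks, chr7:133500385-133502418 at 53.2 CPM and chr7:133482717-133484459 at 52.0 CPM. The latter stood at 29.8 ± 4.78 CPM per kb, above the Lat promoter in 8 of 9 libraries, and its nearest listed start is that of the microRNA gene Mir7058, 28.0 kb away. Lcp2 (chr11:33946839-33947780) held 24.5, 24.1 and 20.6 CPM at its promoter in WT, 24.8, 20.8 and 22.2 in Il21e_KO and 24.4, 20.6 and 19.6 in Stat6_KO, and its SD was the smallest of the 12 promoters on the scale of CPM per kb. In its intron 1, 1.324 kb from the start (chr11:33948525-33949499), a peak held 33.7, 27.2 and 29.7 CPM in WT, 36.2, 36.5 and 34.4 in Il21e_KO and 31.3, 30.6 and 26.9 in Stat6_KO. All Il21e_KO libraries were above all WT and Stat6_KO libraries there. Of all peaks tested, Il21e_KO lay above WT in all libraries at 2.84% and above Stat6_KO at 4.59%. The share with both was not counted, and the peak was not called in the tests below. The intron 1 peak was denser than the promoter in 9 of 9 libraries, at 32.7 ± 3.68 CPM per kb. Just past the gene end, chr11:33992941-33993714 stood at 31.9 CPM per kb.

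The genotypes were compared peak by peak with limma-trend, with Benjamini-Hochberg adjustment over all peaks tested. Of the 188 peaks, 97 had enough reads. The 91 others had at most 15 reads in any library, and they were 35 peaks of Fyn, 18 of Lcp2, 11 each of Cd247 and Zap70, 7 of Lck, 6 of Lat, 2 of Cd3g and 1 of Cd3e.

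Without STAT6, no peak of the 9 genes rose or fell past the threshold. In Stat6_KO against WT, 0 of 97 peaks passed the false discovery rate (FDR) of 0.05, where 0.0104% of all 48287 peaks did. At an unadjusted p under 0.05 there was 1 of 97, where the background was 3.29%. The edgeR and DESeq2 tests on the recovered reads also called 0. At an unadjusted p under 0.05 edgeR had 1 of 97, against 3.66% of all peaks, and DESeq2 had 0, against 0.951%. The median log2 fold change of the 97 was -0.05 against -0.00464 for all peaks tested, and the values ran from -0.67 to 0.71. Without Il21e_KO 1, whose spread enters the shared fit, 9 of the peaks had an unadjusted p under 0.05 against 9.28% of all peaks, and still 0 passed.

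The values below 0 with the smallest p lay in Fyn, Cd247 and Cd3e. A peak of Fyn (chr10:39208776-39209178) had 17, 12 and 21 reads in the WT libraries and 17, 7 and 11 in the Stat6_KO libraries. The groups overlap, since Stat6_KO 1 at 9.66 CPM lay above WT 2 at 9.34 CPM. The log2 fold change was -0.67 ± 0.29 (SE; 95% interval -1.28 to -0.07; limma-trend FDR 1.00), and this was the 1 peak under the unadjusted threshold. In Cd247 (chr1:167767457-167768555) WT had 48, 45 and 36 reads against 36, 39 and 34, a value of -0.41 ± 0.21. The Cd3e promoter, with 37, 40 and 42 reads in WT against 31, 30 and 35, gave -0.48 ± 0.25 (interval -1.02 to 0.05; limma-trend FDR 1.00). The values above 0 with the smallest p were 0.46 ± 0.23 and 0.35 ± 0.18 in Fyn (chr10:39168516-39169387 and chr10:39132592-39133442) and 0.43 ± 0.29 in intron 8 of Lcp2 (chr11:33973659-33974164). Stat6_KO lay above WT in all libraries at 3 of the 97 peaks and below at 4, or 3.09% and 4.12%, against 6.31% and 6.89% of all peaks.

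In Il21e_KO against WT, 0 of 97 peaks passed, as did 0% of all peaks, and 2 of 97 had an unadjusted p under 0.05 against 3.52%. With edgeR 0 were called and 1 had an unadjusted p under 0.05, against 2.55% of all peaks. With DESeq2 both counts were 0, the latter against 0.654%. The median was -0.02 against -0.03 for all peaks. The peak 3.172 kb beyond the distal start of Lck had 27, 31 and 40 reads in WT against 18, 22 and 28 in Il21e_KO, a value of -0.47 ± 0.21 (interval -0.91 to -0.03; limma-trend FDR 1.00), and -0.54 without Il21e_KO 1. Stat6_KO held 32, 27 and 25 reads there. A peak of Fyn (chr10:39154570-39155248) had 19, 16 and 29 reads in WT against 3, 17 and 24 in Il21e_KO. Its value of -0.79 ± 0.37 (limma-trend FDR 1.00) went to -0.21 without Il21e_KO 1, the library with 3 reads. Another in Fyn (chr10:39188489-39189398), at -0.51 ± 0.25, went to -0.22.

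The values above 0 with the smallest p belonged to the proximal start of Lck (0.46 ± 0.25, and 0.23 without Il21e_KO 1) and intron 8 of Lcp2 (0.53 ± 0.29, and 0.30 without it). The third was an intergenic peak in the Lck window, 6.6 kb from the start of Fam167b (chr4:129261904-129262948, 0.36 ± 0.20, and 0.22 without Il21e_KO 1). None passed. Il21e_KO lay above WT in all libraries at 2 of the 97 peaks and below at 2, or 2.06% each, against 2.84% and 4.44% of all peaks.

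The knockouts compared with each other also gave 0 of 97 called, against 0.0104% of all peaks, and 4 at an unadjusted p under 0.05 against 5.68%. EdgeR and DESeq2 called 0, with 4 and 1 at an unadjusted p under 0.05, against 4.66% and 1.74% of all peaks. The largest difference was again at the Fyn peak chr10:39154570-39155248, with 34, 30 and 22 reads in Stat6_KO against 3, 17 and 24 in Il21e_KO (1.03 ± 0.37, interval 0.26 to 1.80; limma-trend FDR 0.780), and was 0.45 without Il21e_KO 1. Other values above 0 were an intergenic peak 11.1 kb from Fyn (0.51 ± 0.22) and one 6.4 kb from Cd3e (0.54 ± 0.26, and 0.34 without Il21e_KO 1). Below 0 were the intergenic peak near Fam167b (-0.48 ± 0.20), a Cd247 peak (chr1:167783658-167784321, -0.48 ± 0.22) and a Fyn peak (chr10:39090998-39091728, -0.63 ± 0.30, and -0.32 without Il21e_KO 1). Stat6_KO lay above Il21e_KO in all libraries at 8 of the 97 peaks and below at 7, or 8.25% and 7.22%, against 6.45% and 4.59% of all peaks.

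**Figure D3:**
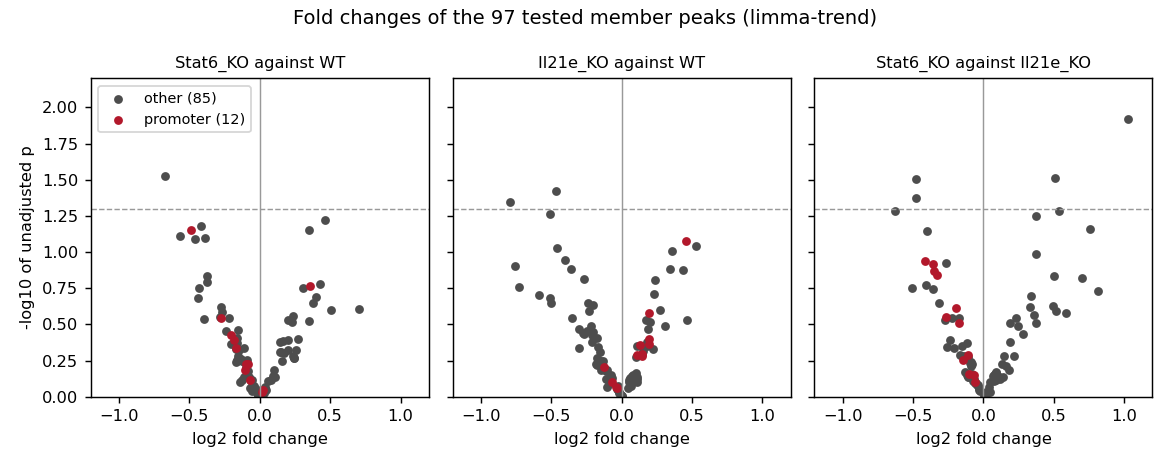
Log2 fold change of the 97 tested peaks (horizontal axis) against -log10 of the unadjusted limma-trend p (vertical axis) in the 3 comparisons, with the 12 promoter peaks red and the 85 others grey and a dashed line at an unadjusted p of 0.05. Few points lie above the line (1, 2 and 4 of 97), and in Stat6_KO against Il21e_KO all red points lie left of 0.

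The direction of the promoter peaks was read beside that of all promoters. Of the 12 tested promoter peaks, 9 had a value below 0 in Stat6_KO against WT (median -0.10), 4 in Il21e_KO against WT (median 0.14) and 12 in Stat6_KO against Il21e_KO (median -0.19). Among all 11905 tested promoter peaks of the table, 67.1%, 42.8% and 69.7% had a value below 0 in these comparisons. Without Il21e_KO 1 the 12 split into 7 below and 5 above 0 in Il21e_KO against WT (median -0.06) and 8 below and 4 above in Stat6_KO against Il21e_KO (median -0.04). With reads in promoter peaks as the library total, 7 were below 0 in Stat6_KO against WT and 8 in Stat6_KO against Il21e_KO. No promoter passed in any comparison.

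**Figure D4:**
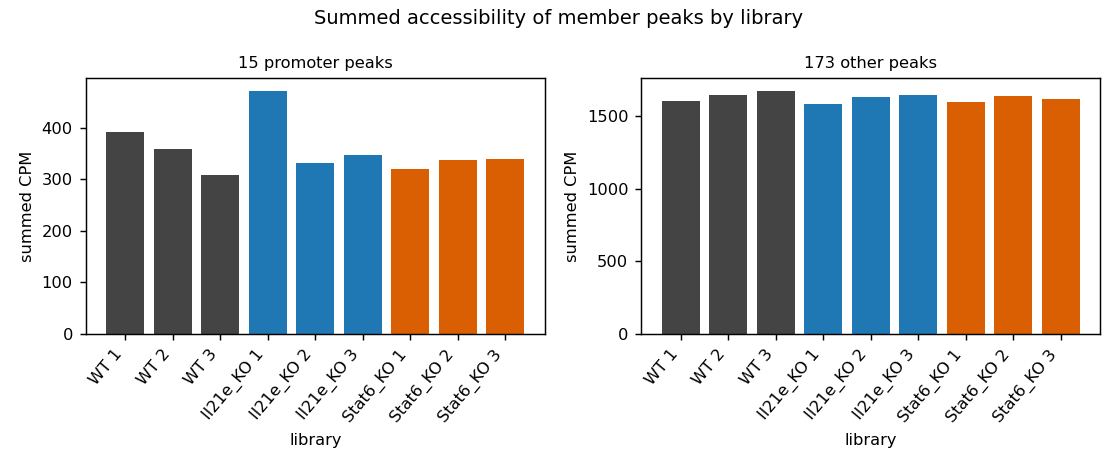
Summed CPM of the 15 promoter peaks (left, bars from 0) and of the 173 other peaks (right, bars from 0) in each of the 9 libraries, coloured by genotype. Il21e_KO 1 has the highest promoter sum, at 471.7 CPM against 308.3 to 391.6 in the others, and the sums of other peaks are nearly level.

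Summed over the library, promoter peaks of the 9 genes held 353 ± 42.0 CPM in WT, 383 ± 77.0 in Il21e_KO and 332 ± 11.5 in Stat6_KO (SD, n = 3). The other peaks held 1644 ± 35.0, 1622 ± 33.4 and 1619 ± 22.1 CPM. The share of a library's reads in the 188 peaks was 0.200% ± 0.000991 in WT and 0.195% ± 0.00318 in Stat6_KO, and these groups did not overlap. By an exact 2-sided permutation test this gave p = 0.1, the smallest that 3 against 3 libraries allow, and 0.865 after Benjamini-Hochberg adjustment over 21 such tests.

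Summing all peaks of a gene lowers the counting error. With 15138 gene sums tested by limma-trend, 0 of the 9 genes passed in any comparison, against 0.0198%, 0% and 0.0264% of all genes in Stat6_KO against WT, Il21e_KO against WT and Stat6_KO against Il21e_KO. At an unadjusted p under 0.05 there were 0 of 9 in each, against 3.16%, 2.99% and 5.33%. All 27 intervals of a log2 fold change lay between -0.41 and 0.34.

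The lowest gene sum in Stat6_KO against WT was that of Lck. Its peaks summed to 151.8, 150.3 and 152.8 CPM in WT, 158.2, 131.1 and 152.0 in Il21e_KO and 126.7, 136.6 and 141.3 in Stat6_KO. Stat6_KO was the lower group without overlap, and WT varied by an SD of 1.29 CPM. The log2 fold change was -0.17 ± 0.08 (interval -0.35 to 0.01; limma-trend FDR 1.00), and the FDR was 0.360 without Il21e_KO 1. By edgeR, Lck was the 1 gene sum of 9 with an unadjusted p under 0.05, where 636 of all 15138 gene sums were. It was also the 1 of 9 by limma-trend without Il21e_KO 1, against 11.2% of all gene sums, and without Il21e_KO 2, against 3.36%. With only Stat6_KO and WT in the fit there was also 1 of 9, against 10.1%. Taken from promoter peaks alone, the log2 fold change of Lck was 0.09. Cd247 also lay below WT in every Stat6_KO library, at 463.1, 482.8 and 489.9 CPM against 498.7, 508.4 and 495.9, with a value of -0.07 ± 0.07 (interval -0.20 to 0.07). Thus 2 of 9 gene sums did not overlap downward and 0 upward, against 6.06% and 8.3% of all genes.

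The highest gene sum in Stat6_KO against WT was Cd3d at 0.09 ± 0.12, which was -0.07 from its promoter alone. Cd3e, Fyn, Lat and Lcp2 had values between -0.02 and 0.00, with Lcp2 at 0.00 ± 0.06 (interval -0.12 to 0.13) the most narrowly bounded. In Il21e_KO against WT the values ran from -0.16 ± 0.12 for Cd3g to 0.08 ± 0.11 for Zap70, and the latter was -0.00292 without Il21e_KO 1. Cd3d went from 0.01 to -0.14 without that library. Lat lay above WT in every Il21e_KO library, at 159.1, 161.9 and 160.9 CPM against 151.8, 147.9 and 155.4 (0.08 ± 0.08). That was 1 of 9 sums, against 3.39% of all genes, and 0 lay below, against 3.28%. In Stat6_KO against Il21e_KO the values ran from -0.12 ± 0.08 for Lck to 0.09 ± 0.12 for Cd3g. Without Il21e_KO 1 they ran from -0.11 for Lat to 0.23 for Cd3d, which had been 0.07 (interval without it 0.05 to 0.41; limma-trend FDR 1.00), and Lck went to -0.07. Cd3d was then the 1 of 9 sums with an unadjusted p under 0.05, against 4.27% of all gene sums. Without Il21e_KO 2 there were 2 of 9, Cd247 (-0.18, from -0.11) and Lck (-0.20), both at limma-trend FDR 0.420, against 11.9% of all gene sums. With all libraries, 0 of 9 sums lay above in all libraries, against 5.91% of all genes, and 1 below, against 5.15%.

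**Figure D5:**
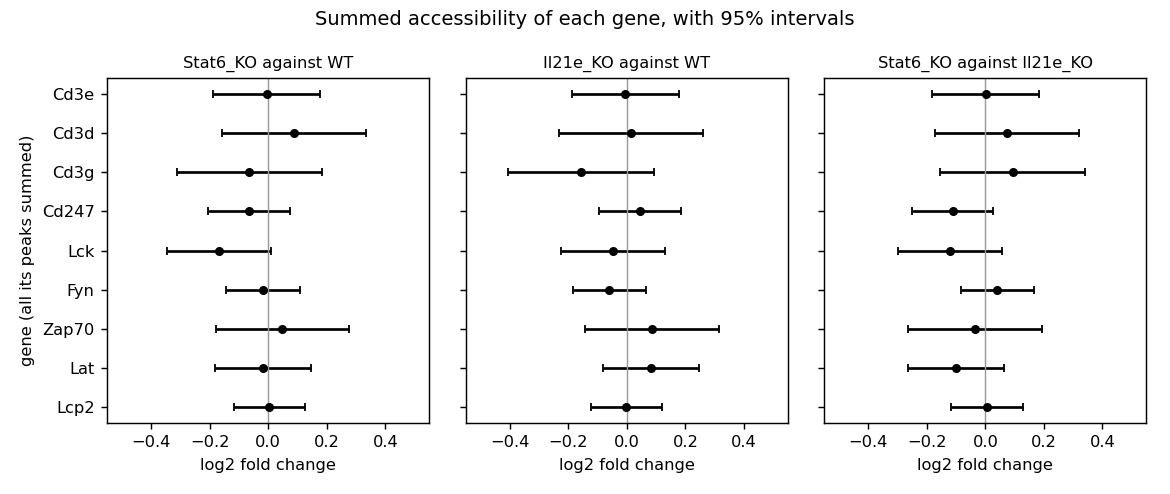
Log2 fold change of the summed CPM of each of the 9 genes (points) with 95% intervals (lines) in the 3 comparisons. The intervals of all 9 genes cross 0 in each comparison, and those of Fyn and Lcp2 are the shortest.

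The wider pathway was read from a list of 45 further genes, which holds coreceptors, regulators of the Src kinases, further kinases, adaptors and the enzymes that open calcium, Ras and NF-kB signalling. All 45 gene sums were tested, and 0 passed in any comparison. At an unadjusted p under 0.05 there was 1, in the upward direction, in Stat6_KO against WT, 0 in Il21e_KO against WT, and 3 in Stat6_KO against Il21e_KO, of which 1 upward. These are 2.22%, 0% and 6.67% of the list, against 3.16%, 2.99% and 5.33% of all gene sums. The medians were -0.01, 0.02 and -0.01, beside 0.00795, -0.00162 and 0.01 over all genes tested.

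Themis, which encodes a signalling protein of developing T cells, had 154 ± 10.3 CPM in Stat6_KO against 134 ± 11.6 in WT (0.20 ± 0.09, limma-trend FDR 1.00). Syk, the relative of Zap70, stood at 0.22 ± 0.12 and the adaptor gene Grb2 at -0.10 ± 0.06 in the same comparison. In Il21e_KO against WT the 3 smallest p belonged to the adaptor gene Sla (0.12 ± 0.08), Trat1 (-0.13 ± 0.09), which encodes a transmembrane adaptor of the receptor, and the exchange factor gene Arhgef6 (-0.10 ± 0.06). In Stat6_KO against Il21e_KO the values below 0 among them were those of Plcg1, the phospholipase that LAT recruits (-0.17 ± 0.07), and of the adhesion receptor gene Cd2 (-0.19 ± 0.08), each at limma-trend FDR 0.764. None of these passed.

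The spread between libraries was compared with counting error. For the 88 peaks with a mean of at least 10 reads per library, the chi-square per degree of freedom within genotypes had a median of 0.841. Independent reads would give a mean of about 1 and a median somewhat below it. It was 1.73 for promoter peaks and 0.763 for the others. The promoters varied beyond counting error, and the other peaks at the median did not. Il21e_KO 1 was the highest library at 9 of the 12 tested promoter peaks. The median SE of a log2 fold change was 0.22 for the promoter peaks and 0.23 for the other peaks.

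Over the 9 libraries, the mean of the 12 promoter peaks moved most like the promoter peaks of the nucleoporin gene Nup153 (Pearson r = 0.986 over 9 libraries), the DNA polymerase gene Poli (0.984) and the exchange factor gene Dock4 (0.981), out of 8875 compared. The median r over these was 0.658. Without Il21e_KO 1, r was 0.972 for Nup153, 0.968 for Poli and 0.952 for Dock4. All promoter peaks share the libraries' depth and promoter content, and r is given as a description.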

How the data were processed

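Each of the 9 libraries, in 3 genotypes with 3 libraries each, was cut with the Nextera enzyme and read as 75-bp paired ends, per the labels' protocols. The submitters' processing notes name Bowtie 1.3.0, MACS2 2.0, HOMER and the mm9 build, without their roles. The deposited values are CPM, which the authors scaled to reads in all listed peaks. All values were whole multiples of a library's smallest value within 0.01 read (100%), taken as 1 read.

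Peaks were kept by filterByExpr (edgeR 4.0.16, count minimum 10, total minimum 15). Values were taken as log2(CPM + 1), which understates changes of low peaks, and all 9 libraries entered 1 limma-trend fit with a coefficient per genotype (R 4.3.3, limma 3.58.1), with Benjamini-Hochberg adjustment over 48287 peaks or 15138 gene sums. DESeq2 1.42.0 and edgeR were alternatives. The procedure was tested on simulated data. Gene columns were read by content, since their headers are shifted. The 9 genes and all lists were chosen with earlier results of these data known. Named were all promoters, each gene's densest other peak, and the 3 peaks (of the wider list, 3 genes) with the smallest p per direction or comparison, of which 1 gene is not reported here. Promoter starts were matched to table transcripts by transcript length, and no coordinates were converted.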

Additional observations from a re-analysis of the deposited data

How the results depend on the processing

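Over 22 alternatives (21 for peaks), 0 peaks and 0 gene sums of the 9 genes passed in any comparison. The lowest adjusted p was 0.315 for a peak and 0.360 for a gene sum, both in Stat6_KO against WT without Il21e_KO 1, where 63 peaks of the whole table passed against 5 with it. The 24 fold changes followed were the named peaks with the smallest p and the lowest and highest gene sums, chosen from the main fit. Of their 474 values under the alternatives, 467 kept their direction and 7 did not, all of them gene sums. Some alternatives cannot alter a fold change, such as leaving out a library of the genotype not compared, so this count does not test the directions. With promoter peaks only, Lck (0.0857) and Cd3d (-0.0718) in Stat6_KO against WT and Cd3g (-0.147) in Stat6_KO against Il21e_KO changed sign, and so did Cd3g (-0.0351) with a window of 10 kb and Lck (0.0143) with reads in promoter peaks as the total. That scaling moved the median of all peaks tested in Stat6_KO against Il21e_KO from 0.04 to 0.16. Leaving out 1 library, Zap70 in Il21e_KO against WT ranged from -0.00597 to 0.19, below 0 without WT 3 or without Il21e_KO 1. The cause of these changes was not tested. Same-numbered libraries of different genotypes correlated in their deviations between -0.19 and 0.25, and 4 of 9 libraries correlated best with their own number, so the numbers were not taken to pair the libraries. With the replicate number as a block, 0 peaks and 0 gene sums of the 9 genes passed. At an unadjusted p under 0.05 there were 2 of 97 peaks in Stat6_KO against WT, where 3.04% of all peaks were. There were 2 in Il21e_KO against WT, against 3.54%, and 5 in Stat6_KO against Il21e_KO, against 5.96%. With the filter off, all 188 peaks entered the limma-trend fit and 0 passed. At an unadjusted p under 0.05 there were 9 in Stat6_KO against WT, or 4.79%, against 6.33% of all peaks. There were 6 in Il21e_KO against WT (3.19% against 6.15%) and 12 in Stat6_KO against Il21e_KO (6.38% against 7.94%). With 1 read worth 0.555 to 0.953 CPM, the peaks under the filter rest on few reads.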
